A study of Rattus norvegicus with 10 samples.

Results

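The 10 genes described here encode pore-forming subunits of AMPA and NMDA receptors, the ionotropic glutamate receptors that carry most fast excitatory transmission in the brain. They were chosen by name: 4 AMPA receptor genes (Gria1 to Gria4) and 6 NMDA receptor genes (Grin1, Grin2a to Grin2d, and Grin3a). All 10 symbols were found among the 17168 rows of the deposited count table, and all 10 were among the 11682 genes that passed the filter on low counts. The libraries came from the left hippocampus of female TgF-344AD rats, 5 fed ibudilast in their chow and 5 fed plain rodent chow without the drug. Ibudilast inhibits several cyclic nucleotide phosphodiesterases. Treatment began at 5 months of age and ran for 6 months, and all animals were 11 months old at dissection. TgF344-AD rats carry human transgenes with mutations found in familial Alzheimer disease, driven by a prion protein promoter. Treated and untreated animals carry the same transgenes, and no non-transgenic group was analysed here.

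AMPA receptors are tetramers of the subunits GluA1 to GluA4. They open within milliseconds of glutamate release, and a receptor that contains edited GluA2 lets little calcium through. NMDA receptors combine GluN1 with GluN2 or GluN3 subunits, need a co-agonist besides glutamate, and admit calcium when the membrane is depolarized. In the hippocampus the movement of AMPA receptors into and out of synapses and calcium entry through NMDA receptors underlie long-term potentiation, a cellular model of memory.

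Levels are given as CPM, estimated counts scaled to a common library total with TMM factors. Total estimated counts were between 7553804 and 10121571 in the ibudilast libraries and between 6960066 and 8204390 in the untreated libraries. Levels are compared only between libraries for the same gene, since transcript lengths were not used here. Libraries are numbered as in the labels, and each comes from its own animal.

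Several libraries stood apart by markers of neighbouring tissue. In ibudilast 3 the 11 cerebellar neuron markers summed to 4384 CPM, against 47.9 to 151 CPM in the other ibudilast libraries and 49.7 to 124 CPM in the untreated libraries. Fat2, a marker of cerebellar granule cells, stood at 1196 CPM in ibudilast 3 and at no more than 5.59 CPM in the other 9 libraries. Gabra6, another, stood at 449 CPM there and at no more than 0.490 CPM elsewhere, with 0 counts in ibudilast 4 and untreated 5. The 8 meningeal fibroblast markers summed to 1182 CPM in ibudilast 5 and 1015 CPM in ibudilast 3, and to at most 201 CPM elsewhere. Choroid plexus markers (7 genes) summed to 2574 CPM in untreated 1 and at most 73.3 CPM elsewhere.

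Markers of brain regions and cell types also differed by group. The 10 neocortical markers summed to 358 to 898 CPM with ibudilast and 317 to 478 CPM without it, and 6 of the 10 tested rose while none fell. The 12 hippocampal principal neuron markers summed to 355 to 909 CPM with ibudilast and 736 to 1319 CPM without it, and 5 of the 9 tested fell while none rose. None of the 10 neocortical markers was at 0 in any library. Of the 12 hippocampal markers, 3 were at 0 in ibudilast 4, none in ibudilast 5, and 1 or 2 in every other library. GABAergic interneurons are known to express Gria4 and Grin2d. Their 11 markers summed to 884 to 1950 CPM with ibudilast and 554 to 1035 CPM without it, and 5 of 11 rose while none fell. The 1950 CPM was in ibudilast 3, and the next highest ibudilast sum was 1215 CPM in ibudilast 4. The 11 general neuronal markers summed to 8275 to 12770 CPM with ibudilast and 8866 to 12505 CPM without it. The sums did not overlap for the thalamic or striatal, microglial, oligodendrocyte precursor and astrocyte lists. The astrocyte sums were 2951 to 4260 CPM with ibudilast and 4522 to 6703 CPM without it. The 10 thalamic or striatal markers summed to 273 to 382 CPM with ibudilast and 153 to 225 CPM without it, and 4 of 10 rose while none fell. The 10 microglial markers summed to 291 to 527 CPM with ibudilast and 585 to 928 CPM without it, and 9 of 10 fell. The 8 oligodendrocyte precursor markers summed to 557 to 655 CPM with ibudilast and 738 to 849 CPM without it, where 4 fell and 1 rose. The neocortical and hippocampal lists were entered into the model as scores, and the part of the other lists in the receptor results was not tested. In tissue libraries, fewer cells of a type and less RNA per cell cannot be told apart.

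**Figure D1:**
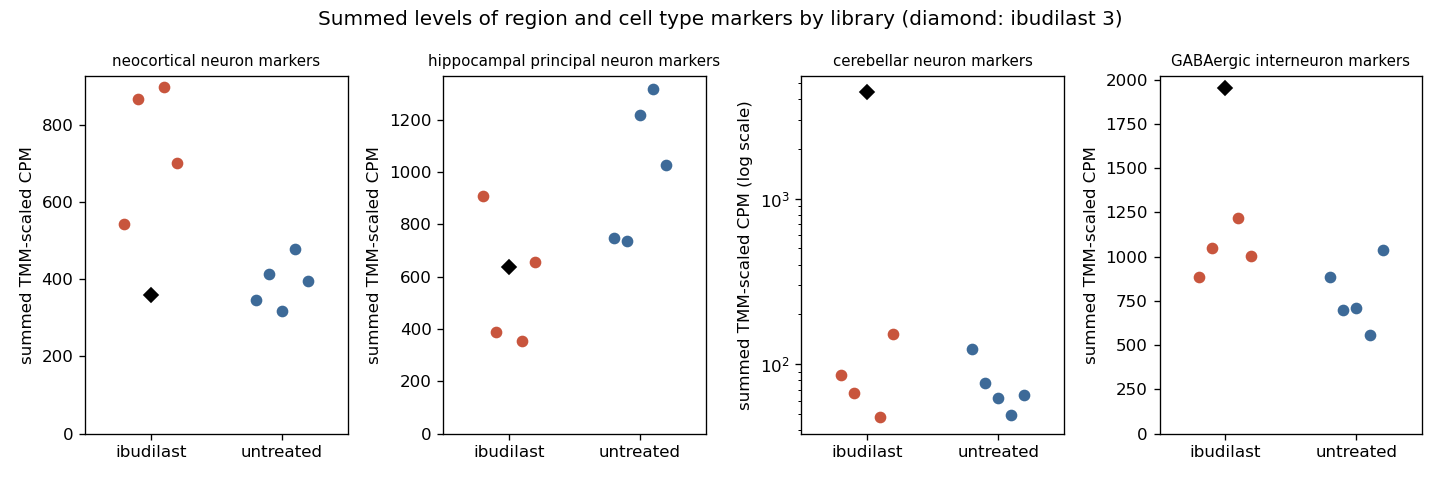
Summed TMM-scaled CPM of 4 marker lists in each library, with ibudilast at left and untreated at right in each panel and the cerebellar panel on a log axis. Points are single libraries, and the black diamond is ibudilast 3, at 4384 CPM for the cerebellar list against at most 151 CPM in every other library.

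Gria4, Grin2a and Grin3a were higher in the ibudilast libraries, and the other 7 subunit genes did not pass the test. In counts, 3 of 10 members rose and 0 fell. The edgeR quasi-likelihood test with a Benjamini-Hochberg adjusted p under 0.05 called 38.5% of all tested genes, with 20.0% higher and 18.5% lower. The median log2 fold change of the 10 members was 0.49, beside 0.0071 over all tested genes, of which the middle 50% lay between -0.31 and 0.38. None of the 10 members separated the groups fully, whereas the groups did not overlap at 24.3% of tested genes.

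**Figure D2:**
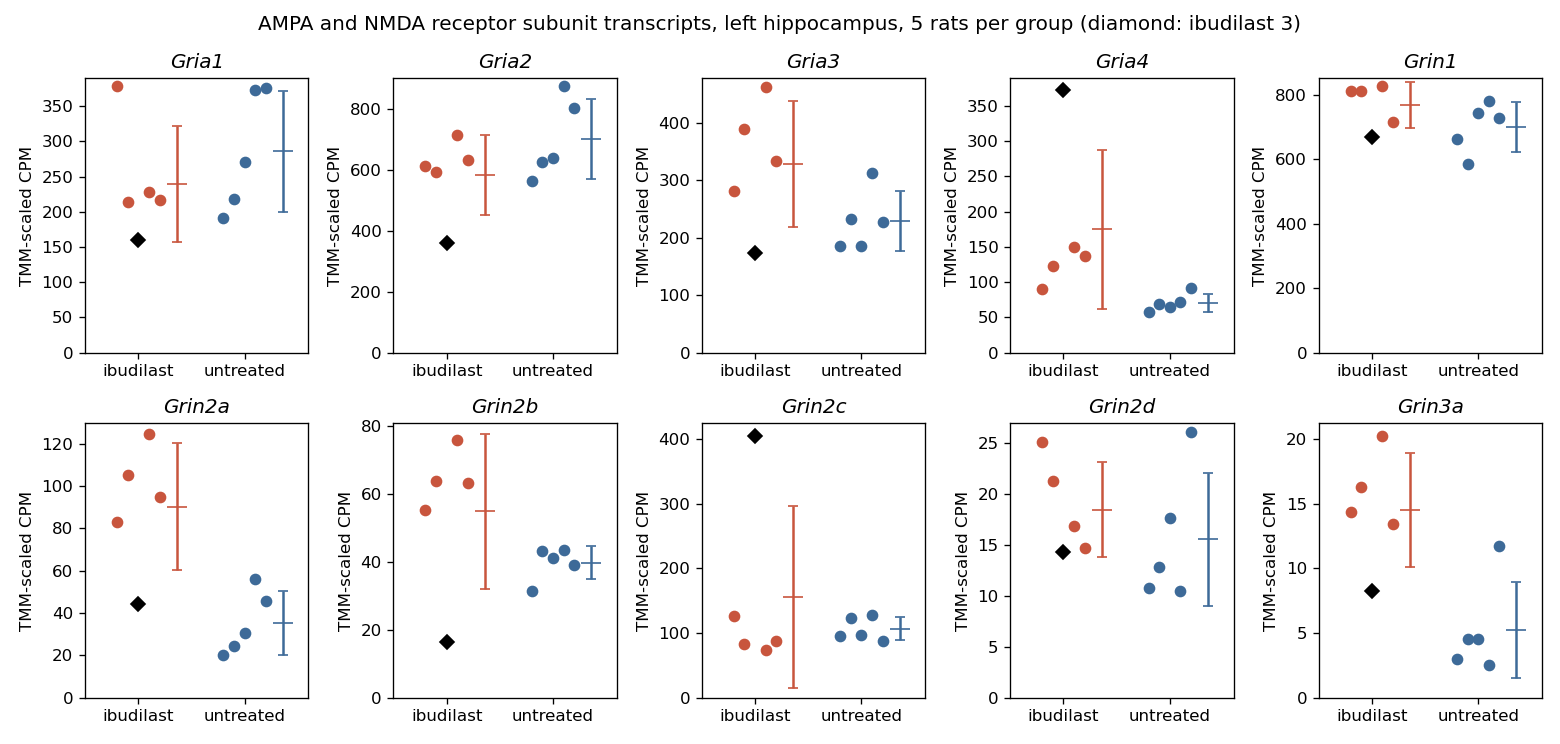
TMM-scaled CPM of each of the 10 subunit genes, 1 point per library, with ibudilast at left and untreated at right, and bars for the mean and SD of 5 libraries. The black diamond is ibudilast 3, which is highest of all 10 libraries for Gria4 and Grin2c and lowest for Gria1, Gria2, Gria3 and Grin2b.

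Among the AMPA receptor genes, Gria1 encodes GluA1, the subunit most closely tied to the insertion of receptors during potentiation. Gria1 stood at 378, 213, 160, 227 and 217 CPM in ibudilast 1 to 5, against 191, 218, 271, 373 and 376 CPM in untreated 1 to 5. The ranges overlapped almost entirely, with ibudilast 1 as high as untreated 4 and untreated 5. On the log2 scale the difference was -0.26 ± 0.25 (SE), with an edgeR adjusted p of 0.435.

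Gria2 encodes GluA2, the subunit whose edited form limits calcium entry. It stood at 615, 595, 361, 717 and 633 CPM in ibudilast 1 to 5, against 564, 628, 640, 877 and 804 CPM in untreated 1 to 5. Ibudilast 3 lay below all other libraries, and the remaining 4 ibudilast libraries lay within the untreated range. Its log2 fold change, -0.27 ± 0.18 (SE), had an edgeR adjusted p of 0.272, and was -0.13 without ibudilast 3.

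Gria3, the X-linked gene for GluA3, stood at 281, 391, 173, 463 and 334 CPM in ibudilast 1 to 5, against 186, 233, 187, 313 and 228 CPM in untreated 1 to 5. In 3 ibudilast libraries it was above every untreated library, and in ibudilast 3 it was below every untreated library. The log2 fold change was 0.52 ± 0.24 (SE) and missed the threshold (edgeR adjusted p = 0.105). Without ibudilast 3 it was 0.69 ± 0.18 (SE) and passed (edgeR adjusted p = 0.0117).

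Gria4 encodes GluA4, which in the adult forebrain is found mainly in interneurons and which is abundant in the cerebellum. It stood at 90.4, 123, 373, 150 and 138 CPM in ibudilast 1 to 5, against 57.6, 68.3, 64.8, 71.9 and 91.3 CPM in untreated 1 to 5. The groups overlapped only through ibudilast 1 and untreated 5, which differed by about 1 CPM. Mean Gria4 was 175 ± 113 CPM with ibudilast and 70.8 ± 12.6 CPM without it (SD, n = 5 each), and it rose by 1.30 ± 0.34 on the log2 scale (SE), with an edgeR adjusted p of 0.0115. In ibudilast 3, the library with the cerebellar transcripts, the level was far above that of any other library. Without that library the log2 fold change was 0.83 ± 0.16 (SE; edgeR adjusted p = 0.00313), so the rise held at a smaller size.

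The stretch directly upstream of Gria4, the AMPA receptor gene that rose, is shown with that of Grin1, the shared NMDA subunit gene that did not pass. The RefSeq promoter table for build GRCr8 held 5 of the 10 members, namely Gria4, Grin1, Grin2c, Grin2d and Grin3a. The stretches of Grin2c, Grin2d and Grin3a were not searched, although Grin3a also rose, so the pair shown is a choice. Both stretches are on the minus strand, written 5′ to 3′, and end at the annotated gene: 110 bases at chr8:10320022-10320131 for Gria4 and 250 bases at chr3:28528755-28529004 for Grin1. Capitals mark the half-site TGACG, or CGTCA on the other strand, the core of the site bound by CREB, a factor activated through cAMP, which phosphodiesterases degrade.
Gria4: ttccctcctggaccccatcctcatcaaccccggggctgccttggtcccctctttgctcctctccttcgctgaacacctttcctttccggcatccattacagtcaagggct
Grin1: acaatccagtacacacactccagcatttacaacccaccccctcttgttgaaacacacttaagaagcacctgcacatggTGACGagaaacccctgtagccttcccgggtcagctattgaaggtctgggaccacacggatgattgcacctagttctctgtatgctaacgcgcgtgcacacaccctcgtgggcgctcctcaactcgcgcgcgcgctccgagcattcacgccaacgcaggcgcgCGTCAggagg
The Grin1 stretch held 2 matches and the Gria4 stretch 0. Over all 33469 promoters in the table, the first 250 bases of the entry held at least 1 in 18.2% and the first 110 bases in 6.39%. In other entries the first 110 bases need not end at the annotated gene, so 6.39% is not a like comparison for Gria4. The matches describe letters in these windows and were not tested for binding.

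Of the NMDA receptor genes, Grin1 encodes GluN1, which every NMDA receptor contains. Grin1 stood at 813, 813, 669, 828 and 716 CPM in ibudilast 1 to 5, against 663, 586, 743, 782 and 730 CPM in untreated 1 to 5. The groups overlapped, and Grin1 varied least of the 10 members, with a coefficient of variation of 9.25% with ibudilast and 11.0% without it. Its log2 fold change, 0.13 ± 0.11 (SE), had an edgeR adjusted p of 0.348.

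Grin2a encodes GluN2A, the GluN2 subunit that gains ground on GluN2B as forebrain synapses mature. It stood at 83.1, 105, 44.3, 124 and 94.7 CPM in ibudilast 1 to 5, against 19.9, 24.5, 30.8, 56.0 and 45.5 CPM in untreated 1 to 5. Ibudilast 3 was the only treated library inside the untreated range, below untreated 4 and untreated 5. Grin2a averaged 90.3 ± 29.9 CPM with ibudilast and 35.3 ± 15.1 CPM without it (SD, n = 5 each). It rose by 1.35 ± 0.32 on the log2 scale (SE), with an edgeR adjusted p of 0.00744, the smallest of the 10 members. A larger log2 fold change was seen at 3.57% of all tested genes. It was 1.53 ± 0.27 (SE) without ibudilast 3. With the neocortical marker score in the model it was 0.65 ± 0.33 (SE) and did not pass (edgeR adjusted p = 0.161).

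Grin2b encodes GluN2B, which prevails early in development and binds CaMKII. It stood at 55.1, 63.8, 16.2, 75.8 and 63.3 CPM in ibudilast 1 to 5, against 31.5, 43.2, 41.1, 43.3 and 39.2 CPM in untreated 1 to 5. Ibudilast 3 was the lowest of all 10 libraries, and the remaining 4 ibudilast libraries were above every untreated library. With all libraries the log2 fold change was 0.47 ± 0.31 (SE; edgeR adjusted p = 0.252). Without ibudilast 3 it was 0.71 ± 0.12 (SE) and passed (edgeR adjusted p = 0.00155).

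Grin2c encodes GluN2C, whose main sites are cerebellar granule cells and, in the forebrain, some astrocytes and thalamic neurons. It stood at 127, 83.3, 405, 74.3 and 86.9 CPM in ibudilast 1 to 5, against 95.2, 123, 97.3, 128 and 87.9 CPM in untreated 1 to 5. The ibudilast mean of 155 ± 141 CPM, against 106 ± 17.9 CPM untreated (SD, n = 5 each), came from ibudilast 3. On the log2 scale Grin2c differed by 0.55 ± 0.44 (SE; edgeR adjusted p = 0.338) with all libraries and by -0.19 ± 0.17 (SE; edgeR adjusted p = 0.401) without ibudilast 3, so its sign rested on that library. The 9 astrocyte markers in the table summed to 2951 to 4260 CPM with ibudilast and 4522 to 6703 CPM without it.

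Grin2d encodes GluN2D, found in the adult hippocampus chiefly in interneurons. It stood at 25.1, 21.2, 14.3, 16.9 and 14.7 CPM in ibudilast 1 to 5, against 10.8, 12.9, 17.6, 10.5 and 26.1 CPM in untreated 1 to 5. The highest and the lowest value both belonged to untreated animals. Grin2d differed by 0.24 ± 0.27 on the log2 scale (SE), with an edgeR adjusted p of 0.489.

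Grin3a encodes GluN3A, a subunit that lowers the calcium permeability of NMDA receptors and declines after early postnatal life. It stood at 14.3, 16.3, 8.22, 20.3 and 13.5 CPM in ibudilast 1 to 5, against 2.95, 4.53, 4.51, 2.55 and 11.7 CPM in untreated 1 to 5. Untreated 5 alone reached the ibudilast range, where it lay above ibudilast 3. Grin3a averaged 14.5 ± 4.40 CPM with ibudilast and 5.25 ± 3.73 CPM without it (SD, n = 5 each). Its rise of 1.46 ± 0.39 on the log2 scale (SE), with an edgeR adjusted p of 0.0139, was the largest of the 10 members, and was 2.02 without untreated 5. Its counts were the smallest of the 10, from 19 to 173 per library. Grin3b, which encodes the other GluN3 subunit and was not among the 10, averaged 5.02 ± 2.46 CPM with ibudilast and 5.51 ± 1.32 CPM without it (SD, n = 5 each; edgeR adjusted p = 0.749).

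Ibudilast 3 thus moved 2 members up and several down. Without it 5 members rose (Gria3, Gria4, Grin2a, Grin2b and Grin3a) and 0 fell, where 40.6% of tested genes were called and 22.0% were higher. The remaining ibudilast libraries were all above the untreated libraries for 3 members (Grin2a, Grin2b and Grin3a), as they were at 16.9% of tested genes. Groups without overlap in either direction made up 31.1%. By animal tag, 2 members rose among tags under 100 (Grin2a and Grin3a, where 17.0% of tested genes were called). Among tags over 200 (2 libraries per group), Gria4, Grin2a and Grin2b rose and Gria1 fell, where 4.58% were called. These calls all lay just under the threshold (edgeR adjusted p = 0.0448 to 0.0498). With the replicate number as a block, Gria3 rose besides Gria4, Grin2a and Grin3a, where 30.3% were called. The 5 members that rose without ibudilast 3 also rose when ibudilast 3, ibudilast 5 and untreated 1 were left out together, where 26.6% of tested genes were called.

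**Figure D3:**
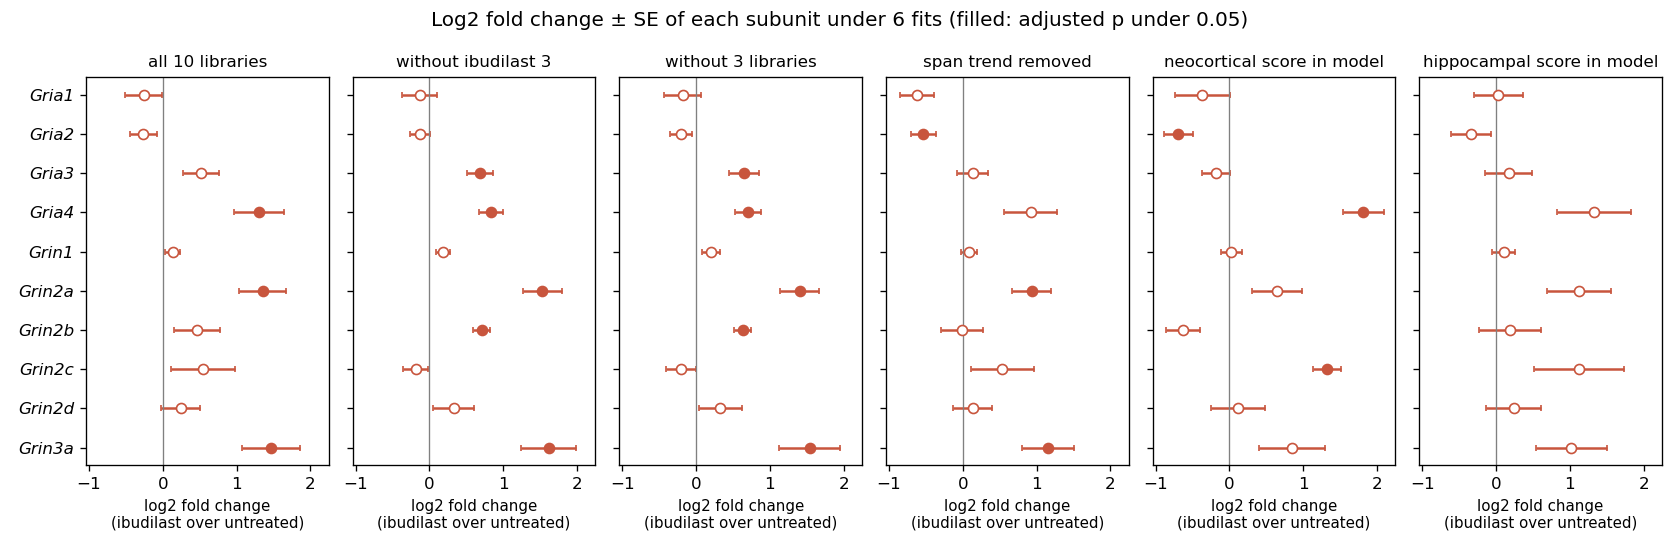
Log2 fold change (ibudilast over untreated) with SE for the 10 subunit genes, 1 panel per fit, with filled points at an adjusted p under 0.05. With all 10 libraries Gria4, Grin2a and Grin3a are filled, without ibudilast 3 Gria3 and Grin2b join them, and with the hippocampal score in the model none is filled.

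Most members are long genes, and fold change varied with length of the gene on the genome. The median log2 fold change was -0.31 in the decile of shortest genes and 0.38 in the decile of longest genes, where 38.1% of 1146 genes rose. That longest decile held 6 members (Gria1, Gria3, Gria4, Grin2a, Grin2b and Grin3a), of which 3 rose. Gria2 was in the ninth decile. With the trend on gene length removed, Grin2a and Grin3a still rose, with log2 fold changes of 0.93 ± 0.26 and 1.15 ± 0.36 (SE; edgeR adjusted p = 0.0186 and 0.0280). Gria4 then stood at 0.92 ± 0.36 (SE) and missed the threshold (edgeR adjusted p = 0.0666). Gria2 was lower in that fit, at -0.53 ± 0.17 (SE; edgeR adjusted p = 0.0314), where 34.3% of tested genes were called.

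Region markers were then entered into the model as scores. The hippocampal score gives equal weight to its 12 markers, among them Tdo2, Lct and Spink8, which did not pass the filter on low counts. Neurod1 in that list averaged 67.8 ± 118 CPM with ibudilast and 29.6 ± 4.24 CPM without it (SD, n = 5 each). With the neocortical score, Gria4 and Grin2c were higher, with log2 fold changes of 1.82 ± 0.28 and 1.32 ± 0.19 (SE; edgeR adjusted p = 0.00319 and 0.00244), and Gria2 was lower at -0.69 ± 0.20 (SE; edgeR adjusted p = 0.0288). Ibudilast 3, which holds the high Gria4 and Grin2c values, has the lowest neocortical score of all 10 libraries, at -0.75. The next lowest is -0.62 in untreated 3. Grin3a did not pass in that fit, at 0.85 ± 0.45 (SE; edgeR adjusted p = 0.168), where 28.1% of tested genes were called. With the hippocampal score 0 members passed, where 5.28% of tested genes were called and 3327 had an unadjusted p under 0.05 (edgeR, the only tool run for that fit). The log2 fold changes of Gria4, Grin2a and Grin3a in that fit were 1.33 ± 0.50, 1.13 ± 0.44 and 1.02 ± 0.48 (SE; edgeR adjusted p = 0.114, 0.127 and 0.193). Both scores differ with treatment, so the score and the treatment cannot be fully told apart.

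Ratios between subunits within a library do not depend on library scaling. The Grin2a to Grin2b ratio is often read as a sign of synapse maturity, and Gria2 is set against other AMPA receptor genes because edited GluA2 restricts calcium. The ratios were chosen with the rise of Grin2a already known. Those with Grin2a are therefore not separate support for that rise. All 4 ratios were chosen with earlier results of these data known. The share of all gene pairs whose ratio separates the groups fully was not computed. Of single tested genes, 24.3% did so. Ratios were compared by two-sided exact permutation tests, adjusted over the 4 ratios. With all 10 libraries the smallest possible unadjusted p was 0.00794. It is larger where libraries are left out, so a miss in such a fit does not show that a difference was lost. They are ratios of CPM without length correction, so only differences between libraries are read.

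The log2 ratio of Grin2a over Grin2b was 0.59, 0.72, 1.45, 0.72 and 0.58 in ibudilast 1 to 5, against -0.66, -0.82, -0.42, 0.37 and 0.22 in untreated 1 to 5. Every ibudilast library was above every untreated library, including ibudilast 3, which had the highest ratio. The difference was 1.08 (exact permutation adjusted p = 0.0159), and 0.92 without ibudilast 3. It was 0.84 and did not pass (exact permutation adjusted p = 0.114) without ibudilast 3, ibudilast 5 and untreated 1.

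The log2 ratio of Gria3 over Gria2 was -1.13, -0.61, -1.06, -0.63 and -0.92 in ibudilast 1 to 5, against -1.60, -1.43, -1.78, -1.49 and -1.82 in untreated 1 to 5. These groups did not overlap either, although neither gene passed the test by itself. Counts of both genes are fractional in all 10 libraries, where reads shared between features were divided, and the effect of this on the ratio was not tested. The ratio averaged -0.87 ± 0.24 with ibudilast and -1.62 ± 0.17 without it (SD, n = 5 each), a difference of 0.75 (exact permutation adjusted p = 0.0159). Leaving out any single library kept the difference between 0.69 and 0.82. Without ibudilast 3, ibudilast 5 and untreated 1 it was 0.84 and did not pass (exact permutation adjusted p = 0.0571). The groups still did not overlap there, and the fit has fewer libraries.

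The log2 ratio of Grin2a over Grin1 averaged -3.16 ± 0.47 with ibudilast and -4.41 ± 0.50 without it (SD, n = 5 each), a difference of 1.25 (exact permutation adjusted p = 0.0212). The groups overlapped through ibudilast 3 (-3.92) and untreated 4 (-3.80). Without the same 3 libraries the difference was 1.25 and did not pass (exact permutation adjusted p = 0.0571), although the groups did not overlap there. The log2 ratio of Gria1 over Gria2 averaged -1.31 ± 0.38 with ibudilast and -1.33 ± 0.20 without it (exact permutation adjusted p = 0.905). Its highest value, -0.70, was in ibudilast 1.

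**Figure D4:**
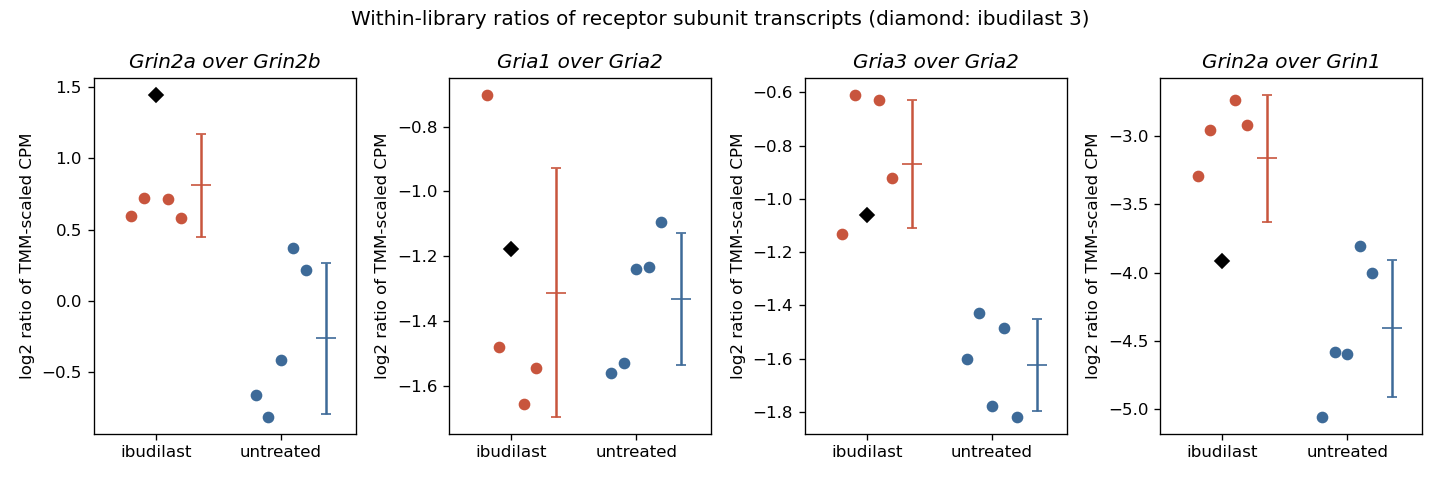
Log2 ratios of TMM-scaled CPM between 2 subunit genes within each library, with ibudilast at left and untreated at right, and bars for the mean and SD of 5 libraries. All ibudilast points lie above all untreated points for Grin2a over Grin2b and Gria3 over Gria2, and the groups overlap for the other 2 ratios.

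Of all tested genes 20.0% rose and 18.5% fell, and the lists of other genes of ionotropic glutamate signalling are read beside those shares. In the kainate and delta receptor list 1 of the 6 genes reported rose and 1 fell (median 0.21 on the log2 scale). Grik3, which encodes the kainate subunit GluK3, averaged 41.2 ± 14.5 CPM with ibudilast and 4.04 ± 2.88 CPM without it (SD, n = 5 each). Grik3 rose by 3.34 ± 0.41 on the log2 scale (SE), with an edgeR adjusted p of 0.000762. Grik4, which encodes the high-affinity kainate subunit GluK4, averaged 50.4 ± 20.7 CPM with ibudilast and 101 ± 25.7 CPM without it. It fell by 1.01 on the log2 scale, or by 0.62 without ibudilast 3, ibudilast 5 and untreated 1 (edgeR adjusted p = 0.0890).

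AMPA receptor auxiliary subunits, which ride with the receptor and set its trafficking and gating, changed at 7 of the 13 genes tested, 4 higher and 3 lower (median log2 fold change 0.37). Cnih2, a cornichon that slows AMPA receptor closing in hippocampal neurons, averaged 186 ± 111 CPM with ibudilast and 641 ± 170 CPM without it (SD, n = 5 each). Its log2 fold change was -1.79 ± 0.36 (SE; edgeR adjusted p = 0.00395), and the groups did not overlap. Prrt1, which encodes SynDIG4, fell by 0.80 on the log2 scale. The TARP genes Cacng5 and Cacng4 had log2 fold changes of 1.48 ± 0.34 and 0.47 ± 0.12 and both rose (SE; edgeR adjusted p = 0.00693 and 0.0128). Of the other calls in this list, Cacng7 (0.37) passed in all 10 fits that left out a library, whereas Cacng3 (0.87 to 1.21) passed in 3 and Cacng8 (-1.58 to -0.97) in 5 of them.

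In the list for AMPA receptor trafficking and clustering 2 of 12 rose and 2 fell (median log2 fold change -0.22). Nptx1, a neuronal pentraxin that gathers AMPA receptors at the synapse, averaged 717 ± 135 CPM with ibudilast and 1135 ± 172 CPM without it (SD, n = 5 each; edgeR adjusted p = 0.00718). Porcn fell by 0.45 on the log2 scale, and did not pass without ibudilast 5 (-0.40). The scaffold gene Grip2 rose by 0.72, with log2 fold changes between 0.57 and 0.90 when 1 library was left out, and did not pass without ibudilast 2, ibudilast 4, untreated 2 or untreated 3. Sacm1l rose by 0.33 (edgeR adjusted p = 0.0374) and passed in only 2 of the 10 fits that left out a library.

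The list for NMDA receptor partners and co-agonist supply changed at 6 of the 11 tested, 3 higher and 3 lower (median log2 fold change -0.18). Not every gene of this list need act at NMDA receptors. The scaffold genes Dlg1 and Dlg2, for SAP97 and PSD-93, both rose, with log2 fold changes of 1.05 ± 0.14 and 0.96 ± 0.22 (SE; edgeR adjusted p = 0.000913 and 0.00690). Dlg1 averaged 118 ± 21.2 CPM with ibudilast and 57.1 ± 6.12 CPM without it (SD, n = 5 each), with no overlap. Slc7a10, an astrocyte gene for a transporter of glycine and D-serine, fell by 0.68, and Grina by 0.52, on the log2 scale. Neto2, placed in this list as an auxiliary subunit gene, rose by 0.97 on the log2 scale and passed in all 10 fits that left out a library. Which receptor its product joins was not tested. Nsmf, also called on the lower side, passed in 2 of the 10 fits that left out a library (-1.17 to -0.67).

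All 3 genes of the ADAR family passed the test on the higher side. Members of this family edit receptor RNAs, including the GluA2 pore site, but not every member need be an active editor. Adar averaged 140 ± 21.6 CPM with ibudilast and 63.8 ± 12.9 CPM without it (SD, n = 5 each; edgeR adjusted p = 0.000972). Adarb1, whose enzyme ADAR2 edits that GluA2 site, averaged 334 ± 67.9 CPM with ibudilast and 205 ± 18.6 CPM without it (SD, n = 5 each; edgeR adjusted p = 0.00293). The groups did not overlap for either gene. Adarb2 had a log2 fold change of 0.78 ± 0.27 (SE), but 0.60 without ibudilast 3 (edgeR adjusted p = 0.0733), and passed in only 2 of the 10 fits that left out a library. Editing itself was not measured in these files.

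**Figure D5:**
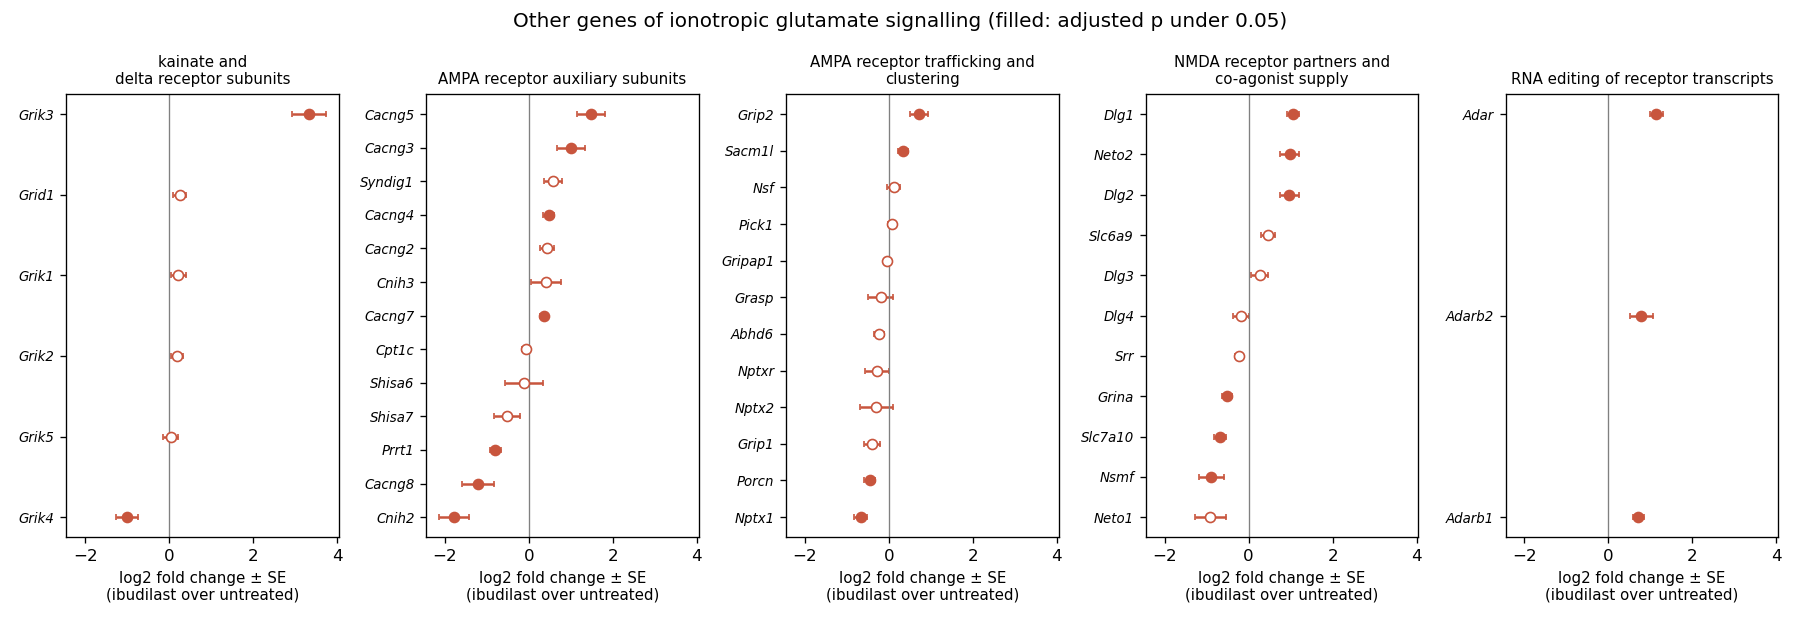
Log2 fold change (ibudilast over untreated) with SE for tested genes of 5 lists, with filled points at an adjusted p under 0.05. Grik3 lies farthest to the right at 3.34, Cnih2 farthest to the left at -1.79, and all 3 ADAR genes are filled on the higher side.

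For the 3 members of smallest p, the genes with the most similar profile were sought among 8987 other genes (mean CPM of 10 or more), after the group means were subtracted over the 10 libraries. They were Ptprj, Lphn1 and Fam49a for Grin2a (Pearson r = 0.993, 0.978 and 0.978). For Gria4 they were Ybey, Osbpl9 and Ddx5 (r = 0.976, 0.970 and 0.963), and for Grin3a Zfp2, Faf2 and Gpr85 (r = 0.994, 0.954 and 0.944). The 10 values behind each r share the libraries named above that stood apart, and ibudilast 3 dominates the spread of Gria4. For Grin3a, untreated 5 stood at 11.7 CPM, against 2.55 to 4.53 CPM in the other untreated libraries. How far its r values rest on that library was not tested.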

How the data were processed

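RNA libraries from 10 hippocampi were analysed, with groups taken from the treatment labels and numbers from the titles. The kit makes stranded mRNA libraries, per the labels' protocols. The deposited expected counts per gene were made by the authors, and the submitters' processing notes name the rn6 build, RSEM 1.2.15, Bowtie2 2.1.0 and bcl2fastq 2.17. No source used here gives the annotation, filters or strand setting, so reads of overlapping or antisense genes cannot be separated. The counts of Gria2, Gria3 and Gria4 are fractional in 10, 10 and 9 libraries, so reads shared between features were divided there, whereas those of the other 7 members are whole. A further deposited table gives a signal per gene, the authors' CPM after TMM scaling, and 99.9% of its values were matched within 0.1% by CPM recomputed from the counts.

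Counts were rounded, filtered with filterByExpr, scaled with TMM and tested by quasi-likelihood in edgeR 4.0.16 (R 4.3.3, Benjamini-Hochberg over all 11682 tested genes). CPM use library sizes over the tested genes. Standard errors come from the quasi-likelihood statistic. Marker scores are mean z-scores of log2(CPM + 1). Gene length on the genome came from the RefSeq GRCr8 table, found for 98.1% of tested genes, and is approximate for counts made on rn6. Alternatives used DESeq2 1.42.0, limma 3.58.1, other scalings, filters and covariates, and each library left out.

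The members, lists, ratios and alternatives were chosen with earlier results of these data known. Named genes were all members, up to 4 called genes of smallest p per pathway list, and the 3 most similar genes for the 3 members of smallest p. Grin3b and the remaining calls of the auxiliary subunit and NMDA partner lists (Cacng3, Cacng7, Cacng8, Neto2 and Nsmf) were named after their values were seen. One gene of the pathway lists is not reported here. Each library has its own animal tag, and p-values measure the spread between libraries of different animals. Spread from dissection and library preparation is part of it and cannot be separated from that between animals.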

Additional observations from a re-analysis of the deposited data

Results flagged for a closer look

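In 64 groups of 5 libraries, 6 had a library far from the other 4 by Dixon's criterion, which chance meets in about 1 group in 20. Of these, 4 concern ibudilast 3, the library with cerebellar transcripts. There Gria4 stood at 373 CPM, against 90.4 to 150 CPM in the other ibudilast libraries, and Grin2c at 405 CPM, against 74.3 to 127 CPM. Adarb2 stood at 18.1 CPM, against 9.64 to 11.8 CPM. The log2 ratio of Grin2a over Grin2b was 1.45 in that library, against 0.58 to 0.72. In the untreated group, Grin3a stood at 11.7 CPM in untreated 5, against 2.55 to 4.53 CPM in the other untreated libraries. Nptx1 stood at 832 CPM in untreated 2, against 1180 to 1250 CPM.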

How the results depend on the processing

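Gria4, Grin2a and Grin3a passed under DESeq2, limma-voom, limma-trend on the deposited CPM, other scaling factors, no filter and unrounded counts, and in all 10 fits without 1 library. Across those 10 fits the count of genes called was 3458 to 4751 (4497 with all), of members called 3 to 5, and of pathway genes called 16 to 24 (22 with all). Log2 fold changes then ran from 0.36 to 0.69 for Gria3 and from 0.32 to 0.71 for Grin2b, and each passed only without ibudilast 3. Without ibudilast 3, ibudilast 5 and untreated 1, 5 members passed, with Gria3 at 0.65 and Grin2b at 0.63. In animals with tags under 100 (3 per group), 1997 genes and 9 pathway genes were called, and Gria4 missed (1.64, adjusted p = 0.0702). With tags over 200 (2 per group), 540 and 7 were called, Grin3a missed (1.26, adjusted p = 0.287), and Gria1 (-0.73) and Grin2b (0.78) passed. With the hippocampal score 617 genes, 0 members and 3 pathway genes were called (Gria4 1.33, Grin2a 1.13, Grin3a 1.02). With the neocortical score Grin2a (0.65) and Grin3a (0.85) missed and Gria2 (-0.69) and Grin2c (1.32) passed. With the length trend removed Gria4 (0.92) missed and Gria2 (-0.53) passed. The cause of these changes was not tested, except that fewer libraries were used in the first ones.

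Same-numbered libraries did not deviate together (r = -0.14 to 0.020), so the replicate number is no pairing. With it as a block, 3535 genes and 4 members were called, and Gria3 passed (0.47, adjusted p = 0.0395). The ratios of Grin2a over Grin2b, Gria3 over Gria2 and Grin2a over Grin1 passed in all 10 fits without 1 library. Without the 3 libraries they differed by 0.84, 0.84 and 1.25 and missed (exact permutation adjusted p = 0.114, 0.0571 and 0.0571). The smallest possible p is larger in that fit, so the misses do not show that the differences were lost. In designs too small to pass they differed by 1.55, 0.67 and 1.36 with tags under 100, 0.36, 0.88 and 1.08 with tags over 200, and 1.08, 0.75 and 1.25 in pairs by replicate number.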

Other observations

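Within each group the libraries fall into animal tags under 100 (3 libraries) and over 200 (2 libraries). In the ibudilast group, 1 member (Gria2) was higher in both animals with tags over 200 than in the other 3, at 717 and 633 CPM against 361 to 615 CPM, and 0 members were lower in both. Over all tested genes, 5.44% were higher and 6.92% lower in this way. In the untreated group, 4 members (Gria1, Gria2, Gria4 and Grin2a) were higher in both animals with tags over 200 and 0 were lower, beside 14.4% higher and 15.3% lower of all tested genes. The 6 other members overlapped. Gria1 stood there at 373 and 376 CPM, against 191 to 271 CPM. The log2 fold change of Gria1 between treated and untreated animals was 0.16 with tags under 100 and -0.73 with tags over 200, and the difference between these values was not tested.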
